A study of Mus musculus with 8 samples.

Results

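Homologous recombination copies the intact sister chromatid to mend a broken chromosome or a collapsed replication fork. The Fanconi anaemia proteins act on DNA whose strands are crosslinked: a core ubiquitin ligase marks the FANCD2-FANCI pair, and the marked pair brings in nucleases. ATM and ATR are the kinases that sense breaks and stalled forks, and CHEK1 and CHEK2 carry their signal to the cell cycle. Many of these genes are transcribed mainly in dividing cells, and the ventricle wall grows by division at midgestation. RNA of 41 such genes was compared between ventricles with and without Rps19bp1 in cardiomyocytes. The genes were taken as a list of symbols, each read from its row on a primary chromosome, and all 41 were found among 52778 rows of the table and among the 15541 rows tested.

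The study profiled ventricular tissue of mouse embryos at embryonic day 11.5 by RNA sequencing. The 4 cKO libraries come from embryos in which Rps19bp1, which encodes a nucleolar partner of ribosomal protein S19, was deleted with the Xmlc2-Cre driver, and the 4 control libraries carry the control label without further detail of alleles. Both groups are labelled as C57BL/6 in background, and the genotype field reads wild type for all 8 libraries, so the groups rest on the treatment field and the titles. The driver acts in cardiomyocytes, so the other cells of the ventricle keep the gene. The labels do not say that each library is a separate embryo, so the p-values measure the spread between these libraries, which may be technical. In bulk tissue, fewer cells of a type and less RNA per cell cannot be told apart.

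Rps19bp1 itself stood at 15.2, 11.8, 13.7 and 19.2 TPM in cKO replicates 1 to 4 and at 40.9, 44.2, 34.7 and 40.0 TPM in control replicates 1 to 4. TPM is a unit for a share of all RNA corrected for transcript length. Every cKO library lay below every control library, and the gene fell by 1.37 on the log2(TPM + 1) scale (SE 0.127, limma adjusted p = 0.000508). Cardiomyocyte markers summed to between 37368 and 42014 TPM in all 8 libraries, whereas 7 of 8 neuronal markers had a mean below 1 TPM and Neurod1 was at 0 in every library. The mitochondrial share of TPM was 13.2% to 16.2% in cKO and 11.4% to 12.2% in control, highest in cKO replicate 3, and libraries correlated within their group at 0.990 to 0.994 across genes. The depth of each library is unknown, since TPM keeps none.

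Of the 41 genes, 10 were lower in cKO at an adjusted p under 0.05 in limma's test (called, below) and 0 were higher. The same threshold called 6.4% of all tested genes, 4.23% lower and 2.16% higher. By the unadjusted p under 0.05, 24 of the 41 passed, against 23.7% of all tested genes. The fitted change was below 0 for 37 of the 41 genes and for 8678 of all 15541 tested genes. On the log2 scale the 41 genes had a median of -0.205, where all tested genes had a median of -0.02. The largest drop was that of Rmi2, at -0.62, and the highest value that of Rad51d, at 0.05. All 4 cKO libraries lay below all 4 control libraries for 19 of the 41 genes, against 10.3% of all tested genes, and none lay wholly above (all tested genes 5.33%). The summed level of the 41 genes was 533, 543, 506 and 540 TPM in cKO and 632, 589, 623 and 616 TPM in control. Every cKO library thus had the smaller sum, and the lowest was cKO replicate 3, which also had the highest mitochondrial share. The part of that share in the difference was not tested beyond a rescaling without mitochondrial and globin genes, under which 4 of the 41 were called and 37 stayed below 0. The count of called genes was 3 without any one of cKO replicate 1, cKO replicate 3, control replicate 1 or control replicate 3. It was 4 without control replicate 4, 6 without cKO replicate 4 or control replicate 2, and 10 without cKO replicate 2.

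**Figure D1:**
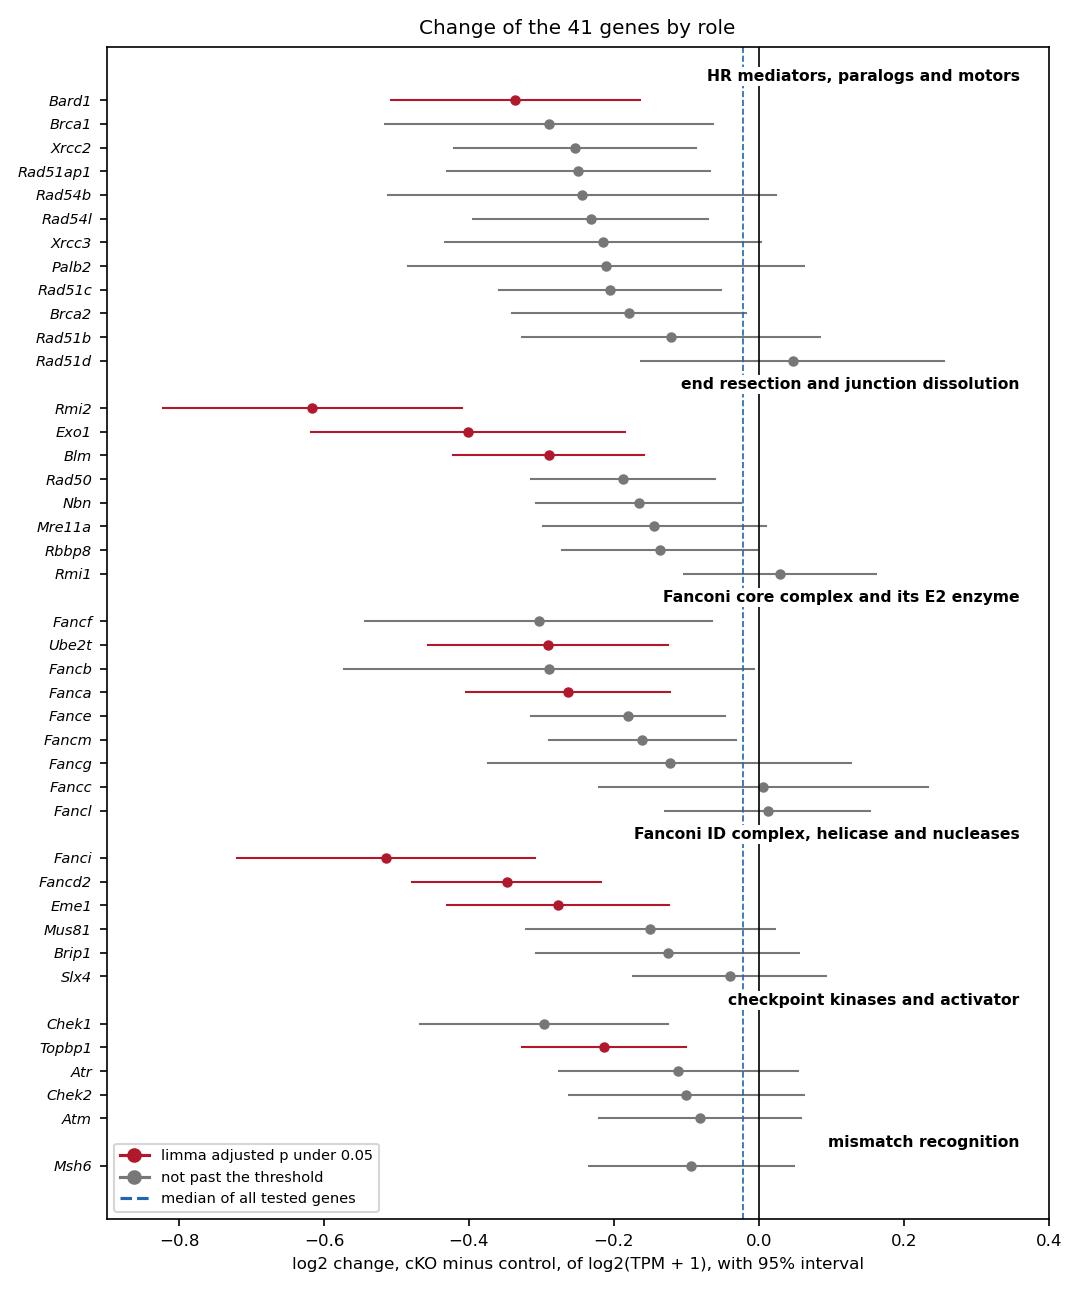
Fitted change of each of the 41 genes (horizontal axis, log2(TPM + 1), cKO minus control; points, limma estimate; bars, 95% interval), grouped by role, with called genes in red and the median of all tested genes as a dashed line. The changes run from -0.62 for Rmi2 to 0.05 for Rad51d, and 37 of 41 points lie below 0.

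**Figure D2:**
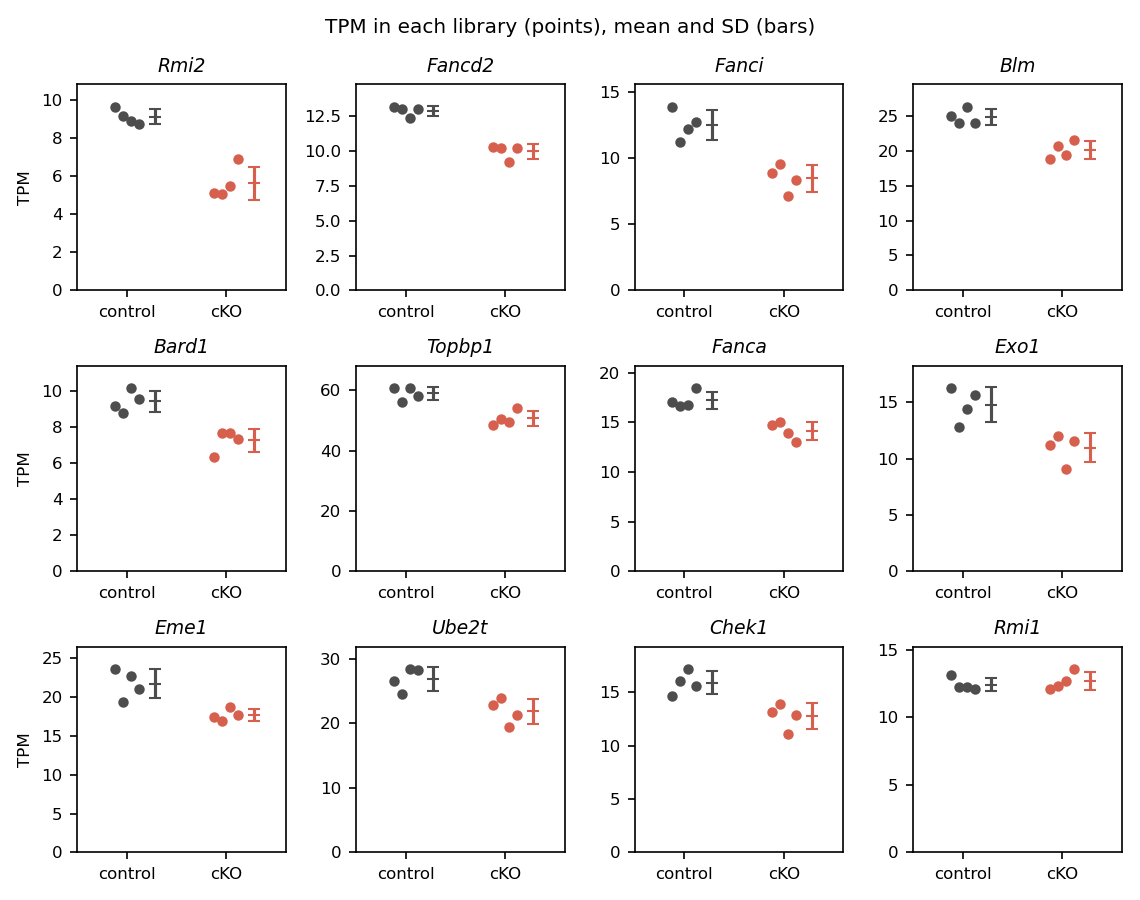
TPM (vertical axis, from 0) of the 10 called genes, Chek1 and Rmi1 in each of the 4 control (grey) and 4 cKO (red) libraries; points are libraries in the order of their replicate numbers, and bars give mean and SD. The groups are apart for every gene shown but Rmi1, whose means are 12.4 TPM in control and 12.7 TPM in cKO.

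Promoter sequence was looked at first, because many genes that follow the cell cycle carry E2F, CHR or CCAAT words near their start. The E2F words searched were TTTCCCGC, TTTGGCGC, TTTCGCGC and TTTGCCGC, the CHR words TTTGAA and TTCGAA, and the CCAAT box was searched as CCAAT, each on both strands of the 250 bases before the RefSeq start (GRCm38.p6). No word contains another, and the words were chosen after the expression values had been seen. RefSeq promoters were at hand for 32 of the 41 genes, and for 7 of the 10 called ones. The called genes Rmi2, Fancd2 and Exo1 had none. An E2F word lay in 5 of the 32 (15.6%), in 1.92% of all 27023 promoters and in 3.5% of those of tested genes. The 5 are Brca2, Bard1, Fancg, Chek2 and Topbp1, of which Bard1 and Topbp1 were called lower. The start used can lie inside the gene's row, so a word before it need not be upstream of the row. That start lay 324 bases inside the row for Brca2, 266 for Fancg, 183 for Chek2 and 160 for Topbp1. The E2F words of these genes fell inside their rows, and only that of Bard1 lay upstream of its row. A CCAAT box lay in 20 of the 32 (62.5%), against 34.5% of all promoters and 36.6% of those of tested genes. Of the 7 called genes with a promoter 3 had the box (42.9%), against 44.3% of the promoters of all genes called lower. These shares were not compared by a test. Genes such as Rmi1 and Msh6 have it without being called. Fancc, Slx4 and Fancm are also counted among the 20, but the start used lay 65547, 2151 and 1493 bases inside their rows. For the called gene Fanca it lay 75 bases inside, and its boxes at -50 and -23 fell inside the row. A CHR word lay in 2 of the 32, Bard1 and Atr (6.25%), against 17.5% of all promoters and 12.3% of those of tested genes. A match is a description of letters and shows no binding.

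A set of 3 stretches, chosen as examples and written 5′ to 3′ on the gene's strand, shows a called gene with E2F and CHR words, a called gene with CCAAT boxes, and the partner of the latter, which holds none of the words and was not called. They are the bases upstream of the gene's row, at chr1:71103142-71103222 on the minus strand for Bard1, chr1:134962315-134962564 on the plus strand for Ube2t and chr11:26386834-26387083 on the plus strand for Fancl. Fanci and Eme1, not shown, were called, and their promoters hold none of the words. Capitals mark the words found.
Bard1: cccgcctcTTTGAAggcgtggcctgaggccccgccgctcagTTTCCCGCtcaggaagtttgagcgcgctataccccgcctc
Ube2t: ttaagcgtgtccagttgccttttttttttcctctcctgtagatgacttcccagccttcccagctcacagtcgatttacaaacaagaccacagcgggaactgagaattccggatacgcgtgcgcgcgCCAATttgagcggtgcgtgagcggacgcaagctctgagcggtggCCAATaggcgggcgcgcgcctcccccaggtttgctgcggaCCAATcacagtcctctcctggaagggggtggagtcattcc
Fancl: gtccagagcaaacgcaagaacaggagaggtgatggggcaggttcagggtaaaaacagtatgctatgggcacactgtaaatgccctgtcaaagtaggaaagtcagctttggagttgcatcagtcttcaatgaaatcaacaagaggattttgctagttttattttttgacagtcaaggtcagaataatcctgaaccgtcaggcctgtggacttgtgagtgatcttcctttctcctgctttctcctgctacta
The Bard1 stretch holds TTTGAA and TTTCCCGC, and RefSeq places the start of the Bard1 transcript 169 bases inside the row. Ube2t has its boxes at -124, -80 and -40 from the start.

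Among the 12 genes of recombination mediators, paralogs and motors, 1 was called lower and 11 were below 0, with a median change of -0.22. The called one is Bard1 (chr1:71027535-71103141, minus strand), the partner that BRCA1 needs to act as a ubiquitin ligase. Bard1 read 6.35, 7.67, 7.67 and 7.37 TPM in cKO and 9.17, 8.78, 10.2 and 9.56 TPM in control. No cKO library reached the lowest control, and the mean of 7.27 ± 0.627 TPM in cKO was 77.1% of the 9.42 ± 0.597 TPM in control (SD, n = 4). The change was -0.34 (SE 0.0773, limma adjusted p = 0.034). That call was lost without any single library other than cKO replicate 2, and under 3 of the 11 other settings, with adjusted p up to 0.0943 and changes between -0.37 and -0.28 without 1 library. BRCA1 itself, the other subunit of the ligase, had 12.1 TPM in cKO and 14.9 TPM in control, a change of -0.29 that did not pass (adjusted p = 0.123).

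Xrcc2, one of the recombination paralogs, read 7.57, 9.12, 7.74 and 7.2 TPM in cKO and 9.41, 9.68, 9.65 and 9.59 TPM in control. The groups did not overlap, but the change of -0.25 (SE 0.0747) missed the threshold (limma adjusted p = 0.0751). Rad54l, a motor that opens chromatin and drives strand invasion, read 11.7, 14.3, 13.5 and 14.5 TPM in cKO against 16.8, 15.5, 15.6 and 16.1 TPM in control. It too had groups that did not overlap, with a change of -0.23 (SE 0.0728, limma adjusted p = 0.0886). Rad51d, another paralog and the partner of XRCC2, stood at 6.12, 5.32, 6.56 and 5.49 TPM in cKO and 6.13, 6.12, 4.8 and 5.59 TPM in control. These values intermingle, and the 95% interval of the Rad51d change ran from -0.16 to 0.26 (adjusted p = 0.809). Rad51c was the fourth gene of the group whose cKO libraries all lay below control, at 7.51 against 8.82 TPM (adjusted p = 0.108). The remaining members were not called: the mediator gene Brca2 changed by -0.18, its anchor Palb2 by -0.21, Rad51ap1 by -0.25, Rad54b by -0.24, Xrcc3 by -0.215 and Rad51b by -0.12. Xrcc3 overlaps Klc1 and Rad54l overlaps Lrrc41 on the opposite strand, and whether the counting used strand is not given in the sources used here. Rad54b overlaps Fsbp on its own strand, at 1.04 TPM in cKO and 1.44 TPM in control.

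Among the 8 genes of end resection and junction dissolution, 3 were called lower, 7 were below 0, and the median change was -0.18. The called ones are Rmi2, Blm and Exo1. Rmi2 (chr16:10835059-10843235, plus strand) encodes a small subunit of the complex in which the BLM helicase and TOP3A take double Holliday junctions apart without crossover. It read 5.13, 5.07, 5.48 and 6.92 TPM in cKO and 9.68, 9.16, 8.94 and 8.76 TPM in control. The highest cKO library was still below the lowest control library. The cKO mean of 5.65 ± 0.867 TPM was 61.8% of the control mean of 9.14 ± 0.396 TPM (SD, n = 4), a change of -0.62 (SE 0.0924, limma adjusted p = 0.00729). Rmi2 had the largest drop of the 41 genes and was called under all 19 alternatives, with changes between -0.70 and -0.575 when 1 library was left out.

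The BLM helicase gene itself (chr7:80454993-80535148, minus strand) read 18.8, 20.7, 19.3 and 21.5 TPM in cKO and 25.0, 23.9, 26.3 and 24.0 TPM in control, without overlap. Blm fell by 0.29 on the log2 scale (SE 0.0592, limma adjusted p = 0.0229), and the call was lost without cKO replicate 1, cKO replicate 3, control replicate 1 or control replicate 3 and under 2 of the 11 other settings (adjusted p up to 0.0739). Ndufab1-ps lies within the Blm row on the opposite strand, at 31.0 TPM in cKO and 30.5 TPM in control, and was not called. Exo1 (chr1:175880768-175911396, plus strand), the exonuclease that extends resection at breaks and degrades the strand in mismatch repair, read 11.2, 12.0, 9.11 and 11.6 TPM in cKO. Its control libraries read 16.3, 12.8, 14.4 and 15.6 TPM, all higher. Exo1 changed by -0.40 (SE 0.0975, limma adjusted p = 0.0398), and when 1 library was left out the call held only without cKO replicate 2 or control replicate 2. It was also lost under 4 of the 11 other settings, among them the rescaling without mitochondrial and globin genes (adjusted p up to 0.121). Rmi1, which bridges BLM and TOP3A to RMI2, read 12.1, 12.3, 12.7 and 13.6 TPM in cKO and 13.1, 12.2, 12.2 and 12.1 TPM in control. Its change of 0.03 had a 95% interval from -0.10 to 0.16 (adjusted p = 0.81). Its row overlaps that of Hnrnpk, an abundant gene on the opposite strand. The MRN complex, which first binds and trims broken ends, was not called in any subunit: Rad50 changed by -0.19 (adjusted p = 0.0802), Nbn by -0.17 and Mre11a by -0.14. Rad50 and Mre11a had groups that did not overlap. Rbbp8, the MRN cofactor also known as CtIP, changed by -0.14.

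Among the 9 genes of the Fanconi core complex and its E2 enzyme, 2 were called lower, 7 were below 0, and the median change was -0.18. Fanca (chr8:123266294-123318651, minus strand), a scaffold subunit of the core ligase, read 14.7, 15, 13.9 and 13.0 TPM in cKO and 17.0, 16.6, 16.7 and 18.5 TPM in control. The groups were apart, and the change was -0.26 (SE 0.0633, limma adjusted p = 0.0386). Fanca overlaps Zfp276 on the opposite strand, which was not called (0.09). The Fanca call was lost without any single library other than cKO replicate 2, and under 5 of the 11 other settings, among them median-ratio scaling and the rescaling without mitochondrial and globin genes (adjusted p up to 0.109). Ube2t (chr1:134962565-134974180, plus strand), the enzyme that hands ubiquitin to FANCD2 and FANCI, read 22.8, 23.9, 19.4 and 21.3 TPM in cKO and 26.5, 24.5, 28.5 and 28.3 TPM in control. All cKO libraries were below all controls, at 81.1% of the control mean, with a change of -0.29 (SE 0.0742, limma adjusted p = 0.0461). Ube2t was also lost without any single library other than cKO replicate 2, and under 7 of the 11 other settings, among them quantile normalization, median-ratio scaling and that rescaling (adjusted p up to 0.121).

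Fance, which links the core complex to FANCD2, read 18.6, 17.0, 17.8 and 19.4 TPM in cKO and 19.4, 22.1, 20.5 and 21.0 TPM in control. The groups touched at their edge without overlapping, and the change of -0.18 (SE 0.0603) was not called (limma adjusted p = 0.107). Fancc, another core subunit, read 10.3, 9.76, 9.48 and 7.63 TPM in cKO and 10.2, 8.11, 10 and 8.56 TPM in control. Here the libraries were interleaved and the 95% interval ran from -0.22 to 0.23 (adjusted p = 0.979). Fancl, the catalytic RING subunit that works with UBE2T, also sat near 0, at 0.01 (15.3 against 15.1 TPM, adjusted p = 0.934). Vrk2, which overlaps Fancl on the opposite strand, changed by -0.34 (adjusted p = 0.0598). Fancf changed by -0.30 and Fancm, the helicase that targets the core complex to DNA, by -0.16, each with groups that did not overlap and neither called. Fancb at -0.29 and Fancg at -0.12 were not called and overlapped between groups.

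Among the 6 genes of the Fanconi ID complex, its helicase and its nucleases, 3 were called lower, all 6 were below 0, and the median change was -0.21. Fancd2 (chr6:113531640-113597020, plus strand), the protein whose ubiquitin mark is the switch of the pathway, read 10.3, 10.2, 9.21 and 10.2 TPM in cKO and 13.2, 13.0, 12.4 and 13.0 TPM in control. No library came between the groups. The cKO mean of 9.95 ± 0.494 TPM was 77.0% of the control mean of 12.9 ± 0.349 TPM (SD, n = 4), a change of -0.35 (SE 0.0585, limma adjusted p = 0.0107). Its partner Fanci (chr7:79392312-79450266, plus strand) read 8.84, 9.57, 7.12 and 8.37 TPM in cKO and 13.9, 11.2, 12.2 and 12.7 TPM in control. Fanci also had all its cKO libraries below control, at 67.8% of the control mean, and changed by -0.515 (SE 0.0924, limma adjusted p = 0.0136). Fancd2 was called under all 19 alternatives, and Fanci under 18, the exception being no filter on low values (adjusted p = 0.0557). The end of Fanci overlaps Polg on the opposite strand, which changed by -0.16 (adjusted p = 0.197).

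The nuclease subunit gene Eme1 (chr11:94644972-94653836, minus strand), which with MUS81 cuts recombination intermediates, read 17.5, 16.9, 18.8 and 17.7 TPM in cKO and 23.7, 19.4, 22.7 and 21.1 TPM in control. Its groups did not overlap and it changed by -0.28 (SE 0.0687, limma adjusted p = 0.0423), a call that held only without control replicate 2 when 1 library was left out. The Eme1 call was also lost under 7 of the 11 other settings, among them quantile normalization and median-ratio scaling (adjusted p up to 0.112 over all 19 alternatives). Eme1 overlaps Lrrc59 and Mrpl27 on the opposite strand, and neither of these was called. Slx4, the scaffold that holds the nucleases, read 12.6, 13.1, 13.2 and 12.2 TPM in cKO and 13.5, 12.1, 13.8 and 13.3 TPM in control. Slx4 showed full overlap and the smallest drop of the group, at -0.04 (adjusted p = 0.731). Mus81 at -0.15 and the helicase gene Brip1 at -0.125 were not called.

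Among the 5 checkpoint genes, 1 was called lower, all 5 were below 0, and the median change was -0.11. Topbp1 (chr9:103305167-103350428, plus strand), the adaptor that switches on ATR at stalled forks, was the most abundant of the 41 genes. It read 48.5, 50.6, 49.5 and 54.2 TPM in cKO and 60.9, 56.1, 60.7 and 58.1 TPM in control. All cKO values were lower, the change was -0.21 (SE 0.0507, limma adjusted p = 0.0374), and the call held only without cKO replicate 4 when 1 library was left out. The Topbp1 call was also lost under 6 of the 11 other settings, among them quantile normalization and median-ratio scaling (adjusted p up to 0.102 over all 19 alternatives). Chek1, the kinase downstream of ATR that holds cells before mitosis, read 13.1, 13.9, 11.1 and 12.9 TPM in cKO and 14.6, 16.0, 17.2 and 15.6 TPM in control. Its groups did not overlap and its change of -0.30 (SE 0.0773) lay just outside the threshold (limma adjusted p = 0.0501), with adjusted p from 0.0403 to 0.13 over the 19 alternatives.

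The genes of the 2 apical kinases were not called. Atr read 9.46, 10.2, 11.4 and 10.1 TPM in cKO and 10.6, 10.5, 12.1 and 11.7 TPM in control. Atm read 9.42, 10.2, 10.7 and 9.61 TPM in cKO and 11.2, 10.4, 10.5 and 10.3 TPM in control. Both had overlapping groups, with changes of -0.11 for Atr (limma adjusted p = 0.405) and -0.08 for Atm (limma adjusted p = 0.475). Chek2, the kinase downstream of ATM, changed by -0.10 (adjusted p = 0.452). Msh6, which takes part in the recognition of mismatched bases, read 38.8, 38.8, 34.3 and 40.1 TPM in cKO and 44.4, 39.9, 39.0 and 39.0 TPM in control. Its change of -0.09 (SE 0.0635) was not called (limma adjusted p = 0.414), and its row overlaps Fbxo11 on the opposite strand.

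**Figure D3:**
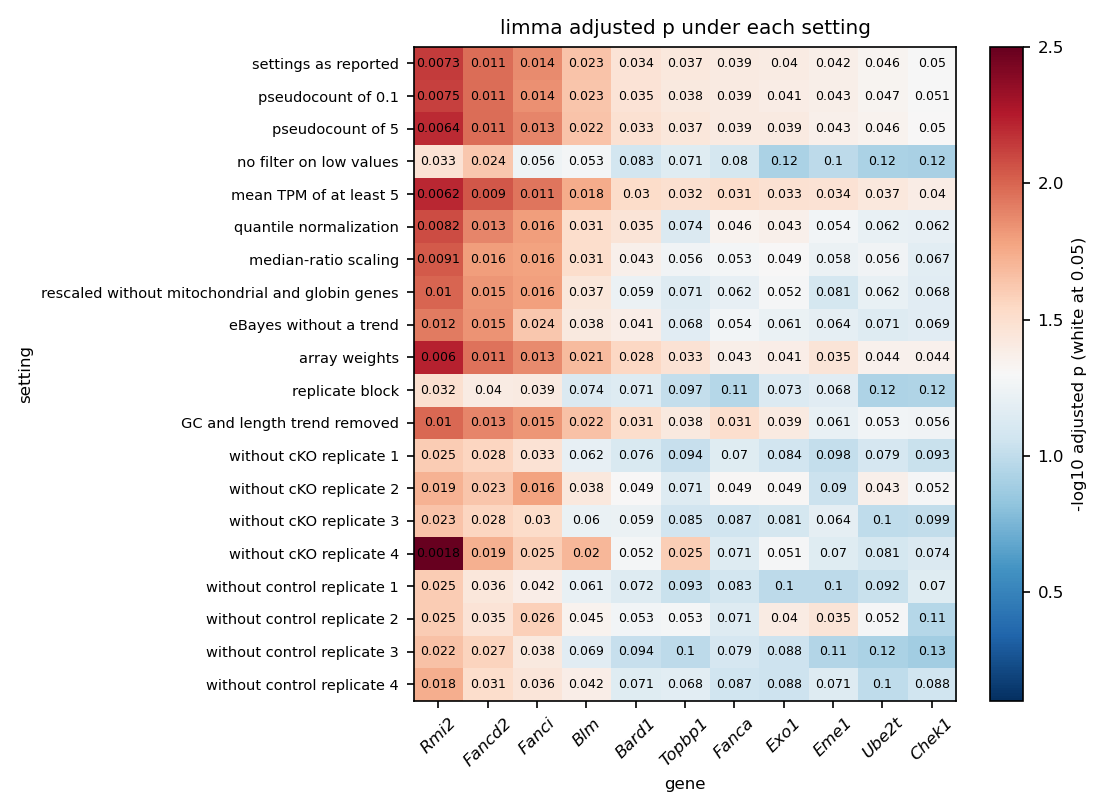
Limma adjusted p (number and colour, red under 0.05) of the 10 called genes and Chek1 (columns) in the fit reported and under each of the 19 alternatives (rows). Rmi2 and Fancd2 are under 0.05 in every row, and Fanci in all but the row with no filter on low values (0.0557).

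The partners of a complex were set against each other. Because TPM is corrected for length, the ratio of one partner to another was taken within each library for 15 pairs, which were chosen after the levels had been seen. The ratio of Rmi2 to Rmi1 was 0.424, 0.411, 0.432 and 0.509 in cKO and 0.736, 0.752, 0.733 and 0.725 in control. Those groups lay far apart, with means of 0.444 ± 0.0442 and 0.736 ± 0.011 (SD, n = 4). The ratio of Rmi2 to Blm averaged 0.281 in cKO and 0.369 in control, and that of Rmi2 to Top3a 0.668 and 1.01. The ratio of Ube2t to Fancl averaged 1.43 in cKO and 1.78 in control. These 4 ratios had groups that did not overlap, each with an exact two-sided permutation p = 0.0286, the smallest that 4 against 4 libraries can give. Adjusted over the 15 pairs each p was 0.107, so none passed 0.05. With that smallest p, 4 separated ratios among 15 pairs cannot pass, so the adjusted p does not decide here. The ratios of Rmi2 share its values and are not separate results. The ratio of Fanci to Fancd2 averaged 0.85 in cKO and 0.968 in control (exact permutation p = 0.0571, adjusted 0.171). The ratio of Rad51d to Xrcc2 was the one that leaned most the other way, at 0.751 against 0.591 (exact permutation p = 0.0857, adjusted 0.214). The other 9 pairs had exact permutation p of 0.114 or more, among them Bard1 to Brca1 at 0.613 in cKO and 0.634 in control, and Nbn to Mre11a at 2.15 in both.

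**Figure D4:**
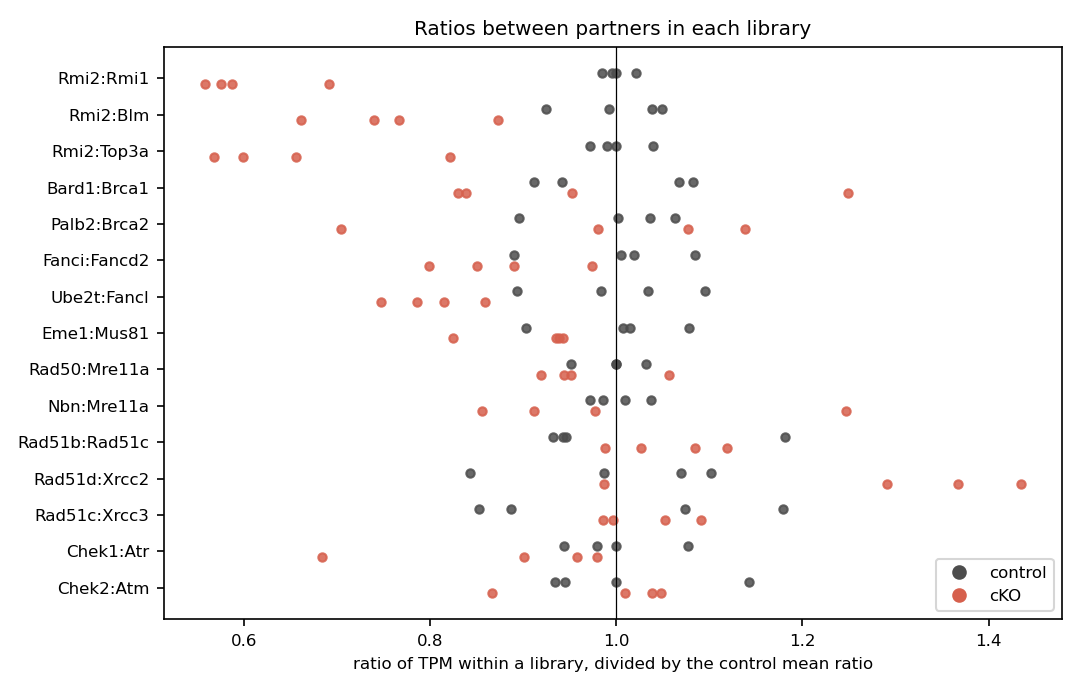
Ratio of the TPM of one partner to the other in each library, divided by the mean ratio of the control libraries (horizontal axis, linear), for 15 pairs (rows; grey, control; red, cKO). The cKO points lie left of all control points for the ratios of Rmi2 to Rmi1, Blm and Top3a and of Ube2t to Fancl.

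Genes that start next to a member and point away can share its promoter region, and here only the distance between starts was used. Starts within 1000 bases gave 16 such neighbours, of which 12 were tested and 1 was called, Fkbp3 beside Fancm, lower with a change of -0.22 (adjusted p = 0.0471). Emc3 starts 2 bases from Fancd2 and codes for a subunit of a membrane protein insertase. Emc3 read 72.1, 67.2, 67.7 and 61.7 TPM in cKO and 66.3, 63.5, 64.4 and 64.6 TPM in control, a change of 0.05 that was not called (limma adjusted p = 0.597). The ratio of Fancd2 to Emc3 averaged 0.149 in cKO and 0.2 in control without overlap (exact permutation p = 0.0286, adjusted 0.171 over 12 pairs). The ratio of Rad54l to 2510003B16Rik averaged 10.5 in cKO and 17.2 in control, also without overlap and with the same p. In that pair 2510003B16Rik was close to the filter of 1 TPM, with a mean of 1.33 TPM in cKO and 0.937 TPM in control. Its own higher level in cKO therefore enters the ratio. None of the 12 ratios passed after adjustment, which so few separated ratios cannot do when 0.0286 is the smallest possible p. The other 10 overlapped between groups, among them Fancm to Fkbp3, the one ratio higher in cKO (0.0406 against 0.0394). The other neighbours tested were Nbr1 beside Brca1 (0.02), Dctn5 beside Palb2 (0.06), D6Wsu163e beside Rad51ap1 (-0.07), Zfyve26 beside Rad51b (0.05), Zfyve21 beside Xrcc3 (0.06), 2510003B16Rik beside Rad54l (0.26), Ankrd49 beside Mre11a (-0.06), Brip1os beside Brip1 (-0.06), Npat beside Atm (0.01) and Hscb beside Chek2 (-0.04). Tex14, Gm35693, Gm36360 and Rlbp1, beside Rad51c, Rad54b, Exo1 and Fanci, had too little RNA to be tested.

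Other genes of the same pathways were read from lists. Of 28 other recombination and Fanconi genes, 5 were called lower and 0 higher, with a median change of -0.15. Those with the smallest p were Usp1, which removes the mark from FANCD2 (-0.32), the resection nuclease gene Dna2 (-0.31) and the AAA ATPase gene Fignl1 (-0.42). Of 22 other checkpoint and damage signalling genes, 8 were called lower and 0 higher, with a median of -0.22 and the smallest p for the CDK1 inhibitory kinase gene Wee1 (-0.37), the CHEK1 mediator gene Clspn (-0.42) and the mitotic phosphatase gene Cdc25c (-0.39).

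Repair routes outside these pathways were read in the same fit. Of 11 end joining genes 2 were lower, Polq (-0.30) and Poll (-0.23), with a list median of -0.15. Of 16 base excision genes 2 were lower, the uracil glycosylase gene Ung (38.1 against 58.4 TPM, -0.61) and Neil3 (-0.34), with a median of -0.10. Of 15 nucleotide excision genes none was lower by the adjusted p in limma (unadjusted p under 0.05 for 3 in either direction), 1 was higher, the endonuclease gene Ercc5 (0.57), and the median was -0.055. These counts were not compared with each other by a test.

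**Figure D5:**
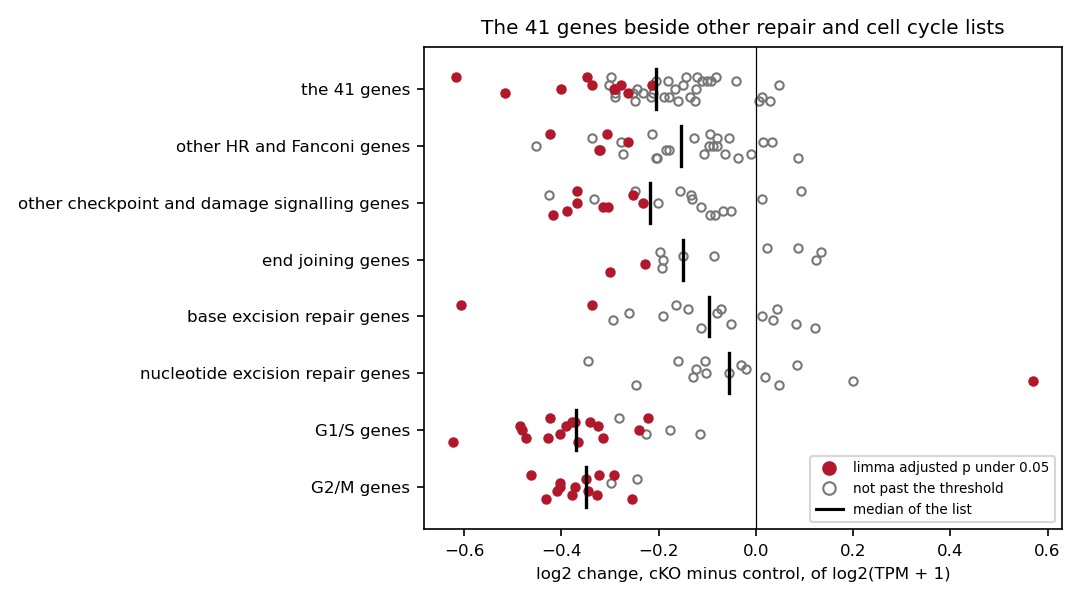
Fitted changes (horizontal axis, log2(TPM + 1), cKO minus control) of the tested genes of each list, 1 point a gene, red where called, with the list median as a bar. The median is -0.205 for the 41 genes, -0.37 for G1/S genes and -0.055 for nucleotide excision repair genes.

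Cell cycle genes were lower in the same libraries. Of 20 G1/S genes 16 were called lower, with a median of -0.37, with the smallest p for Rrm2 (-0.485), Gins2 (-0.42) and Mcm6 (-0.43), and of 15 G2/M genes 13 were, with a median of -0.35, with the smallest p for Mki67, Ccnb2 and Ube2c. Mki67, a marker of cycling cells, read 92.0 TPM in cKO and 122 TPM in control, and Cdkn1a, the p53 target that blocks the cycle, 174 and 29.9 TPM. All 10 p53 targets listed were higher, with a median of 1.24. The summed level of G1/S genes was 1240 to 1479 TPM in cKO and 1728 to 1870 TPM in control, and like the sum of the 41 genes it was lowest in cKO replicate 3. The part of the cell cycle in the lower repair gene levels was not tested.

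Markers of some other cells were higher in cKO. Of 6 epicardial genes 4 were called higher (summed 327 to 418 TPM in cKO, 269 to 302 TPM in control), and of 8 mesenchymal genes 4 were (866 to 1047 against 583 to 753 TPM). Endocardial and endothelial genes, 0 of 8 called by limma's adjusted p and 4 by an unadjusted p under 0.05, summed to 778 to 882 TPM against 728 to 775 TPM. Of 10 cardiomyocyte genes 1 was called lower, Nkx2-5 (205 against 282 TPM). In limma 9 of the 10 were below 0, and 3 had an unadjusted p under 0.05. Erythroid genes ranged from 1750 to 3752 TPM in cKO and 1969 to 7151 TPM in control (0 of 8 called, 2 by unadjusted p). Macrophage genes ranged from 67.5 to 115 TPM against 62.8 to 83.8 TPM (0 of 5 tested called, 1 by unadjusted p). The part of these cell types in the repair gene levels was not tested.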

How the data were processed

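RNA of 4 cKO and 4 control libraries was measured by RNA sequencing. The authors deposited TPM values, per the file header, a unit that scales every column to the same total. The submitters' processing notes name Trim Galore 0.6.7, HISAT2 2.2.1, StringTie 2.2.1, featureCounts and GRCm38, without roles, and strand use and depth are not given in the sources used here. The labels contradict each other: the extraction text speaks of cortical neurons and of ribosomal RNA depletion, the series text of dissected ventricles and a poly(A) kit. All libraries carry batch label 1.

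The 15541 rows averaging 1 TPM or more were fitted as log2(TPM + 1) with group as the only term, using limma 3.58.1 in R 4.3.3 (lmFit, eBayes with a trend, two-sided, Benjamini-Hochberg over all tested rows, threshold 0.05). The scale understates changes of low genes. Single values and ratios were compared by exact two-sided permutation over 70 assignments. The procedure was tested on simulated data. Members and lists were chosen with earlier results of these data known, so lists are given by counts and medians only. In each role group the 3 genes with the smallest and the 1 with the largest p are given per library, beside Msh6 and Rps19bp1, and in each other list at most 3 called genes a direction, Cdkn1a and Mki67. Top3a, Fancl and the overlapping rows were named after their values were seen. The 19 alternatives changed 1 choice at a time. Row positions equalled those of RefSeq GRCm38.p6 for all 41 genes. Some items are not reported here.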

Additional observations from a re-analysis of the deposited data

Results flagged for a closer look

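In 84 groups of 4 libraries (the 41 genes and Rps19bp1 in each group), 3 had a library far from the others by Dixon's criterion, and chance flags about 1 in 20 groups. Palb2 read 3.28 TPM in cKO replicate 3, where the other cKO libraries read 5.03 to 5.23 TPM. Fancd2 read 9.21 TPM in the same library, below the 10.2 to 10.3 TPM of the other cKO libraries. Rmi1 read 13.1 TPM in control replicate 1, above the 12.1 to 12.2 TPM of the other controls.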

How the results depend on the processing

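Of 776 values of the 41 genes under the 19 alternatives, 714 were below 0, 80 lost a call, 6 gained one and 14 changed sign without being called in either fit. The sign changes were those of Fancc under quantile normalization and array weights (each -0.001), and those without 1 library, where Fancc ran from -0.047 to 0.088, Fancl from -0.01 to 0.055, Rad51d from -0.018 to 0.086 and Rmi1 from -0.002 to 0.055.

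Among the 41 genes 10 were called lower, against 2 with no filter on low values, 6 under median-ratio scaling, 4 under rescaling without mitochondrial and globin genes, 5 with eBayes without a trend and 3 to 10 without 1 library. All tested genes gave 658 lower and 336 higher. With no filter there were 207 lower and 140 higher, with eBayes without a trend 371 lower, and without 1 library 229 to 597 lower and 152 to 341 higher. Scaling moved the split: quantile normalization gave 380 lower and 383 higher, median-ratio scaling 419 and 383, rescaling without mitochondrial and globin genes 388 and 386.

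By role, with no filter 0 recombination mediators, 1 resection gene, 0 core complex genes, 1 ID complex gene and 0 checkpoint genes were called. Core complex genes called were 1 under quantile normalization and with the GC and length trend removed, and 0 under median-ratio scaling, rescaling and eBayes without a trend. Checkpoint genes called were 0 under those 3 and quantile normalization, and 2 with a pseudocount of 5, a mean TPM of at least 5 or array weights. Rescaling left 0 mediators. Without 1 library, the calls were 0 to 3 mediators, 1 to 3 resection genes, 0 to 2 core complex genes and 0 to 1 checkpoint genes, and the core complex median ran from -0.235 to -0.171. A pseudocount of 5 gave medians of -0.145 for the 41 genes and -0.159 for the mediators, as a larger pseudocount shrinks low genes. For the other changes the cause was not tested.

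The replicate numbers did not pair the samples: correlations of same-numbered libraries were -0.011, 0.067, 0.058 and -0.089, and not every library correlated best with its own number. A replicate block gave 3 of the 41 called (0 mediators, 1 resection, 0 core complex, 0 checkpoint) and 241 lower and 179 higher over all genes. The ratios, tried with a pseudocount of 1 and without each library (chosen after seeing the data), kept their direction for Rmi2 to Rmi1. The number of libraries and the unknown depth limit the precision.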
